A study of Mus musculus with 6 samples.

Results

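Potassium channel genes were taken as every non-control probe of the array whose gene name starts with Kcn and a letter. They were 95 genes on 138 probes (165 spots), of 36163 gene names and 55681 probes in all. The measured tissue was heart from male C57BL/6 mice, 1 heart and 1 array (1 colour, Cy3) per mouse. Feeding began at 4 weeks of age and lasted 4 months. Mice of the high fat diet (HFD) group took 60% of their calories as fat, mice of the normal diet (ND) group received standard chow, and each group had 3 hearts. The labels name no transgene, drug or surgery. The heart was not divided into chambers or cell types as far as the sources used here tell, so a lower value in such tissue cannot be told apart between fewer cells of a type and less RNA per cell.

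Potassium channels let potassium leave the cardiac myocyte, which ends the action potential and holds the resting potential. Voltage-gated (Kv) pore subunits open on depolarization and repolarize the cell, silent Kv subunits and accessory proteins alter the current of the pores they join, and inward rectifiers set the resting potential and answer to G proteins or to ATP. Two-pore-domain channels pass a background leak, and calcium-activated channels tie the membrane potential to calcium. Adult mouse ventricle repolarizes mainly through fast transient and ultrarapid Kv currents.

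Values are given per heart as the log2 of the spot's intensity over the 75th percentile of its array, so 0 is the 75th percentile and each unit is a doubling. This level depends on the probe, and levels of different genes are therefore not set against each other. "Well above background" is the flag that the scanner software gives to a spot whose signal clearly exceeds the local background. HFD was compared with ND by limma, and a difference is the mean level of the 3 HFD hearts minus that of the 3 ND hearts with its standard error (SE). Adjusted p-values are Benjamini-Hochberg values over all probes tested. The unadjusted limit of 0.05 is the one that the study's methods name.

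The array's probes are 60 bases long, and the first 30 are shown for the 6 genes whose difference kept an unadjusted p below 0.05 and its direction under all 19 alternative settings, because the values below rest on these probes. Kcnd3 and Kcne3 are shown with their second tested probe, since a transcript variant or a second stretch of the same transcript is read there. Positions are those of the array design on mm9.
Kcnd3, variant 1, chr3:105476854-105476913, plus strand: tactgagtcctgtgccactgctgtacctga
Kcnd3, variant 2, chr3:105471938-105471997, plus strand: taatttgaaagcagacgatggactgagacc
Kcne3, first probe, chr7:107333062-107333121, plus strand: gaactcaactcaaccatatcaagccacagt
Kcne3, second probe, chr7:107332867-107332926, plus strand: tattctctttgtcatgttcctatttgccgt
Kcnj4, chr15:79314133-79314157 (a position shorter than the probe), minus strand: gcatgactgtggtctgtgctcttgattctc
Kcnj5, chr9:32122418-32122477, minus strand: ttagtaagataacagacccaatcaggtttc
Kcnj12, chr11:60884556-60884615, plus strand: tcaggctgcttgtgaccatgttaacgattc
Kcnk1, chr8:128554281-128554340, plus strand: cctaacaaactcaagagaaaatcggtacga
All bases are in lower case because no part of a probe is singled out. Every one of the 138 probes matched a current RefSeq symbol, and no symbol had changed. No mm9 gene annotation was used here, so the exon or UTR of each probe is not given.

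The heart expressed many of these genes at a level the array could see. Of the 95 genes, 47 were well above background in all 6 hearts (49.5%, beside 54.1% of all gene names), 19 in 1 to 5 hearts and 29 in none. A gene counted as well above background in a heart if any of its probes was. The number of potassium channel genes above background was 51, 54 and 52 in the ND hearts and 59, 51 and 60 in the HFD hearts. Over all probes, the share well above background was 50.6%, 52.6% and 49.2% in the ND hearts. It was 53.0%, 52.8% and 52.7% in the HFD hearts.

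Inward rectifiers and Kv pores were the most often detected groups of more than 1 gene. Of 15 inward rectifiers, 10 were well above background in all 6 hearts, including Kcnj2 and Kcnj12 (the classical inward rectifier current), Kcnj3 and Kcnj5 (the channel opened by acetylcholine and adenosine), and Kcnj8 and Kcnj11 (the ATP-sensitive channel). Of 17 Kv pores, 11 were, among them Kcnd2 and Kcnd3 (fast transient outward current), Kcna4 (slow transient outward current) and Kcna5 (ultrarapid current). Two-pore-domain channels followed with 8 of 14. Of 13 KCNQ and EAG genes, 5 were detected throughout, with Kcnq1 and Kcnh2, the pores of the slow and rapid delayed rectifiers, among them. Accessory subunits had 7 of 17, calcium- and sodium-activated pores 3 of 8 and silent Kv subunits 2 of 10. Kcnq1ot1, a non-coding RNA whose name fits the rule although it forms no channel, was also above background in all 6 hearts.

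The 29 genes seen in no heart included several best known from other tissues, such as Kcna3 and Kcna10 of the Kv pores, Kcnj1 of kidney, Kcnj6 and Kcnj9 of brain, Kcnh1, Kcnh5, Kcnh6, Kcnh7 and Kcnh8 of the EAG family, Kcnq3 and Kcnq5 of neurons, and Kcnu1 of sperm. Some genes with a cardiac role were not measured well enough to compare. Kcne1, the partner of Kcnq1, was well above background in 1 ND and 2 HFD hearts. Kcnma1, the large-conductance calcium-activated pore of smooth muscle, had 1 ND and 2 HFD hearts above background on its best probe. Kcnk2, a stretch-sensitive leak channel, had none. A probe in this state gives only an upper bound for the gene's level.

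**Figure D1:**
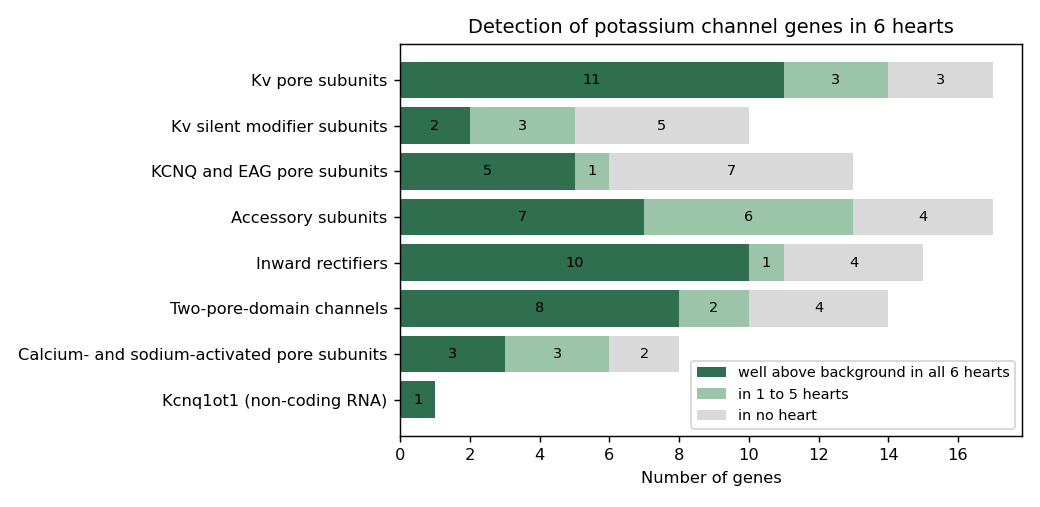
Number of potassium channel genes (x axis) by role (y axis), split into those well above background in all 6 hearts, in 1 to 5 hearts and in no heart. The fully detected share was 10 of 15 for inward rectifiers and 2 of 10 for silent Kv subunits.

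A probe was tested where it was well above background in every heart of at least 1 diet, which left 50 genes (59 probes). For genes with several tested probes, the brightest one stands for the gene. Kcnrg and Kcnn3 entered the test with all 3 HFD hearts above background but only 1 ND heart, and Kcnmb4 with all 3 ND hearts and 2 HFD hearts. None of the 50 genes passed the adjusted limit of 0.05 in limma, beside 3 of 20568 gene names tested (0.0146%). At an unadjusted p below 0.05 there were 12, of which 8 were higher and 4 lower in HFD hearts. The 8 include Kcnrg, which entered through the HFD hearts only. Over all gene names tested, 12.0% had an unadjusted p below 0.05, 4.97% higher and 7.01% lower.

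The 50 genes split into 30 higher and 20 lower in HFD hearts, with a median difference of 0.08 against −0.01 over all gene names tested. The median size of the difference, without sign, was 0.24 for the potassium channel genes and 0.11 for all gene names. Among the 47 genes above background in all 6 hearts, 7 were higher and 4 lower at the unadjusted limit, with a median difference of 0.07. Only Kcnj4 differed by more than 2-fold. In 13 genes the 3 HFD hearts did not overlap the 3 ND hearts (8 above and 5 below), beside 19.5% of all gene names (7.74% above and 11.8% below). Both counts at the unadjusted limit changed with single hearts left out, and the filter was then applied again. Without HFD 3, 5 of 51 genes were higher and 3 lower, beside 2184 of 20833 gene names in either direction. Without HFD 2, 9 of 56 genes were higher and 7 lower, beside 2726 of 20985 gene names. The median ranged from 0.01 without HFD 1 to 0.13 without HFD 2.

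**Figure D2:**
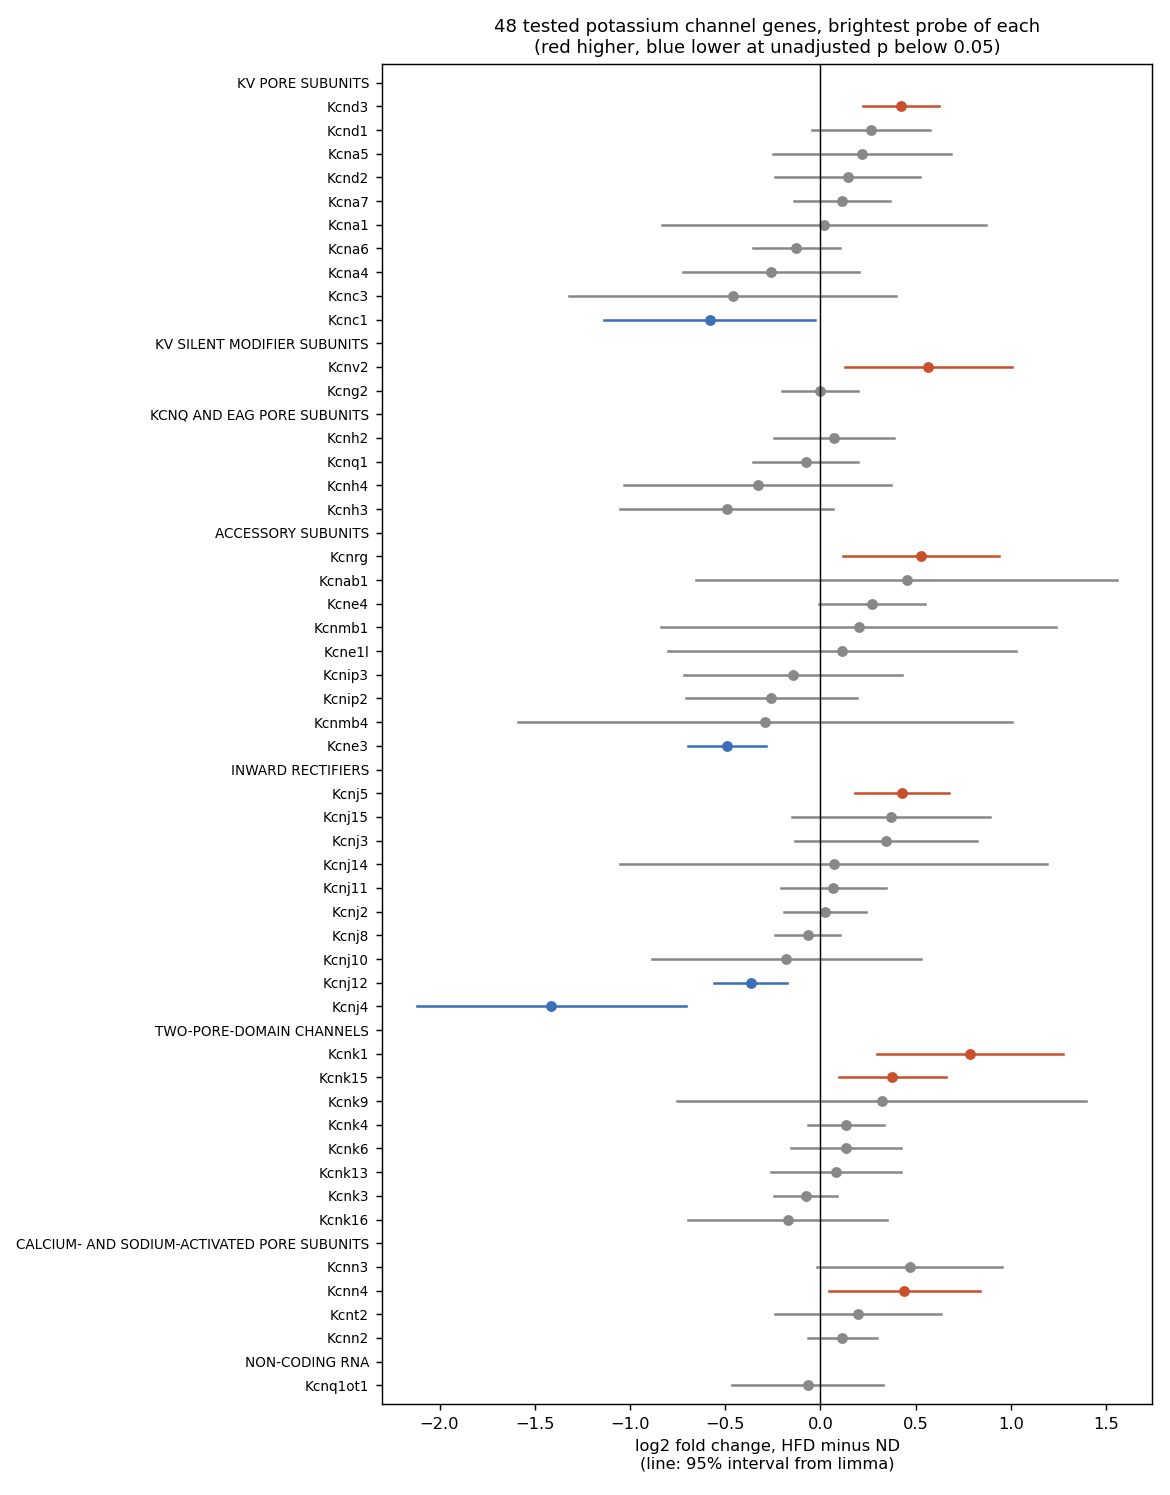
Difference between HFD and ND hearts on the log2 scale (x axis) for the brightest probe of 48 of the 50 tested genes (y axis, by role), with 95% intervals from limma. The interval lay on 1 side of 0 for the genes in red (higher) and the 4 in blue (lower), and crossed it for the rest (grey).

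Among the Kv pores, 11 genes were tested, with 1 higher and 1 lower at the unadjusted limit and a median difference of 0.02. Kcnd3, a pore of the fast transient outward current, was 1.34-fold higher in HFD hearts. Its variant 1 probe read 1.89, 1.93 and 2.01 in the ND hearts and 2.25, 2.40 and 2.45 in the HFD hearts. Every HFD heart lay above every ND heart. The difference was 0.42 (SE 0.08), with an unadjusted p of 0.00213 and an adjusted p of 0.192 in limma. The variant 2 probe of Kcnd3 was above background in all 3 HFD hearts and in none of the ND hearts. This probe was tested because of the HFD hearts alone, so its p-value is not given. Its measured difference was 0.47 (SE 0.15), and 0.05 with normexp, another background correction.

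Kcnd2, the other pore of this current, read 2.40, 2.29 and 2.59 in the ND hearts and 2.81, 2.28 and 2.62 in the HFD hearts, and the diets overlapped, with a difference of 0.14 (SE 0.16, 95% interval −0.24 to 0.52). Kcna4 read 3.68, 3.27 and 3.63 in the ND hearts against 2.95, 3.57 and 3.27 in the HFD hearts, a difference of −0.26 (SE 0.19, 95% interval −0.72 to 0.20). HFD 1 was its lowest heart. Kcna5 differed by 0.22 (SE 0.19) on its brightest probe and by 0.20 (SE 0.17) on the second, with overlapping hearts on both.

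Kcnc1, a fast Kv pore best known from neurons, read −2.30, −2.45 and −2.76 in the ND hearts and −2.83, −2.89 and −3.54 in the HFD hearts. It was lower in all 3 HFD hearts, with ND 3 and HFD 1 close together. The difference was −0.58 (SE 0.23), with an unadjusted p of 0.0421 and an adjusted p of 0.407 in limma. It missed the unadjusted limit under 5 of 19 alternative settings, and without HFD 3 it was −0.35 with an unadjusted p of 0.0749.

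Of the silent Kv subunits, which form no channel alone, 2 genes were tested. Kcnv2 read 0.00, −0.13 and 0.12 in the ND hearts and 0.17, 0.76 and 0.76 in the HFD hearts. HFD 2 and HFD 3 stood well above the ND hearts, and HFD 1 lay just above the highest of them. The difference was 0.57 (SE 0.18), 1.48-fold, with an unadjusted p of 0.0196 and an adjusted p of 0.328 in limma. It missed the unadjusted limit under 4 of 19 alternative settings, among them without ND 2, HFD 2 or HFD 3 (limma p up to 0.0651). Kcng2 differed by 0.00 (SE 0.08) on its brightest probe.

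The main cardiac pores of the KCNQ and EAG group differed by less than their spread. Kcnq1 read 3.23, 3.31 and 3.61 in the ND hearts against 3.35, 3.31 and 3.26 in the HFD hearts, a difference of −0.08 (SE 0.11, 95% interval −0.35 to 0.20). Kcnh2 differed by 0.07 (SE 0.13, 95% interval −0.24 to 0.39). Kcnh3, an EAG pore of forebrain neurons, was among the 3 largest decreases with −0.49 (SE 0.23), an unadjusted p of 0.0748 in limma and overlapping hearts.

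Accessory subunits, which set the gating or the delivery of the pores to the membrane, had 9 genes tested. Kcnrg, 1 of them, entered through the HFD hearts only, so no count over the group is given. Kcne3, a single-span partner of Kcnq1 and of other pores, had the smallest p-value of the 50 genes. Its first probe read −2.38, −2.50 and −2.26 in the ND hearts and −2.90, −2.83 and −2.88 in the HFD hearts. All 3 HFD hearts lay below the ND hearts and close to each other. The difference was −0.49 (SE 0.08), 71.1% of the ND level, with an unadjusted p of 0.00104 and an adjusted p of 0.149 in limma.

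The second Kcne3 probe, for which the array design lists the same 4 transcripts, did not show this. It read −3.11, −3.20 and −3.36 in the ND hearts and −3.01, −3.22 and −3.28 in the HFD hearts, which overlapped. Its difference was 0.05 (SE 0.11), with a 95% interval of −0.21 to 0.31 beside −0.70 to −0.29 for the first probe. Averaging both probes gave −0.22 with an unadjusted p of 0.0183, and normexp background correction gave −0.32 for the first probe. The direction for Kcne3 therefore rests on 1 of 2 probes.

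Kcnrg, a regulator related to the assembly domain of Kv pores, read −4.66, −4.17 and −4.74 in the ND hearts and −4.13, −3.99 and −3.86 in the HFD hearts. Only ND 2 of the ND hearts was well above background. This probe was tested because of the HFD hearts alone, so its p-value is not given. The difference of 0.53 (SE 0.17) was 0.12 with normexp background correction. Kcne4, an inhibitor of several pores, was higher in all 3 HFD hearts (0.27, SE 0.11) at an unadjusted p of 0.0536.

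Kcnip2, the calcium-binding partner of the Kcnd pores, read 1.19, 1.35 and 1.34 in the ND hearts and 0.63, 1.18 and 1.30 in the HFD hearts. HFD 1 alone lay clearly below the rest. The difference was −0.26 (SE 0.18, 95% interval −0.70 to 0.19), and it was 0.01 with the row of the slide as a term. HFD 1 and HFD 2 lay in one row and the other 4 hearts in the second. This term therefore leaves HFD 3 alone to set against the ND hearts. Transcripts of Kcnip2 and of the Kcnd pores are known to follow the daily clock. On the list of clock genes that peak in the evening and early night, 7 of 9 tested genes were lower in HFD hearts, with 4 lower and 1 higher at the unadjusted limit. The mean level of that list ranged from 1.25 to 1.38 in ND and from 1.04 to 1.23 in HFD hearts. On the list of the opposite phase the median difference was 0.01. The part of these genes in the values of the channel genes was not tested.

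Inward rectifiers held the largest difference between the diets, with 1 gene higher and 2 lower of 10 tested. Kcnj4, a strong inward rectifier best known from brain, read −1.40, −0.92 and −1.98 in the ND hearts and −3.09, −2.54 and −2.91 in the HFD hearts. All 3 HFD hearts lay below all 3 ND hearts, although the ND hearts themselves spanned a range of more than 1 unit. The difference was −1.41 (SE 0.29), 37.5% of the ND level, with an unadjusted p of 0.00269 and an adjusted p of 0.207 in limma. It was −0.86 with normexp background correction, at an unadjusted p of 0.0025.

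Kcnj12, which joins Kcnj2 in the classical inward rectifier of the myocyte, was also lower. It read 1.91, 1.80 and 1.97 in the ND hearts and 1.46, 1.52 and 1.60 in the HFD hearts, with no overlap and little spread in either diet. The difference was −0.37 (SE 0.08), 77.6% of the ND level, with an unadjusted p of 0.00342 and an adjusted p of 0.223 in limma. Kcnj2 itself read −2.06, −1.91 and −1.79 in the ND hearts against −1.93, −1.91 and −1.86 in the HFD hearts. Its difference was 0.02 (SE 0.09, 95% interval −0.19 to 0.24), beside −0.56 to −0.17 for Kcnj12, and the difference between the genes was not tested.

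Kcnj5, a subunit of the channel that acetylcholine and adenosine open through G proteins, was higher in HFD hearts. It read 4.06, 4.07 and 4.11 in the ND hearts and 4.60, 4.31 and 4.61 in the HFD hearts. The ND hearts were almost equal, and every HFD heart lay above them. The difference was 0.43 (SE 0.10), 1.35-fold, with an unadjusted p of 0.00525 and an adjusted p of 0.248 in limma.

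Its partner Kcnj3 was measured by 2 tested probes. The brightest read −1.12, −0.90 and −0.72 in the ND hearts and −0.20, −0.87 and −0.64 in the HFD hearts, a difference of 0.34 (SE 0.20) with an unadjusted p of 0.130 in limma and overlapping hearts. The other read −1.96, −1.50 and −1.40 in the ND hearts against −1.09, −1.31 and −1.30 in the HFD hearts, a difference of 0.39 (SE 0.16) without overlap and with an unadjusted p of 0.0564. Both probes thus gave positive values that did not pass the unadjusted limit.

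Kcnj3 and Kcnj5 are richest in atrial and nodal muscle, and the hearts differed widely in atrial markers. The mean level of the atrial muscle list was 3.65, 4.72 and 6.11 in the ND hearts and 6.60, 0.96 and 5.61 in the HFD hearts, with 6 of its 7 genes tested, Bmp10 not being tested. HFD 2 had the lowest mean of this list. With the mean level of this list as a covariate, 11 channel genes were higher and 6 lower at the unadjusted limit. Over all gene names, 3212 of 20568 passed that limit in either direction with this covariate, beside 2464 without it. Kcnj5 was again higher. The part of atrial tissue in the channel values was not tested. Of the pacemaker and conduction list, 3 of 8 genes were tested, and the defining Hcn4, Shox2, Isl1 and Cacna1d were not.

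The pores of the ATP-sensitive channel did not pass the unadjusted limit. The brightest probe of Kcnj11 read 1.93, 1.81 and 1.91 in the ND hearts against 1.72, 2.05 and 2.08 in the HFD hearts. Its difference was 0.07 (SE 0.11, 95% interval −0.21 to 0.34). The second Kcnj11 probe differed by 0.20 (SE 0.12, 95% interval −0.09 to 0.49). The vascular and sarcolemmal pore Kcnj8 read 1.12, 1.16 and 1.16 in the ND hearts against 0.9985, 1.15 and 1.09 in the HFD hearts, a difference of −0.07 (SE 0.07, 95% interval −0.24 to 0.10). The hearts overlapped on each of these probes.

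**Figure D3:**
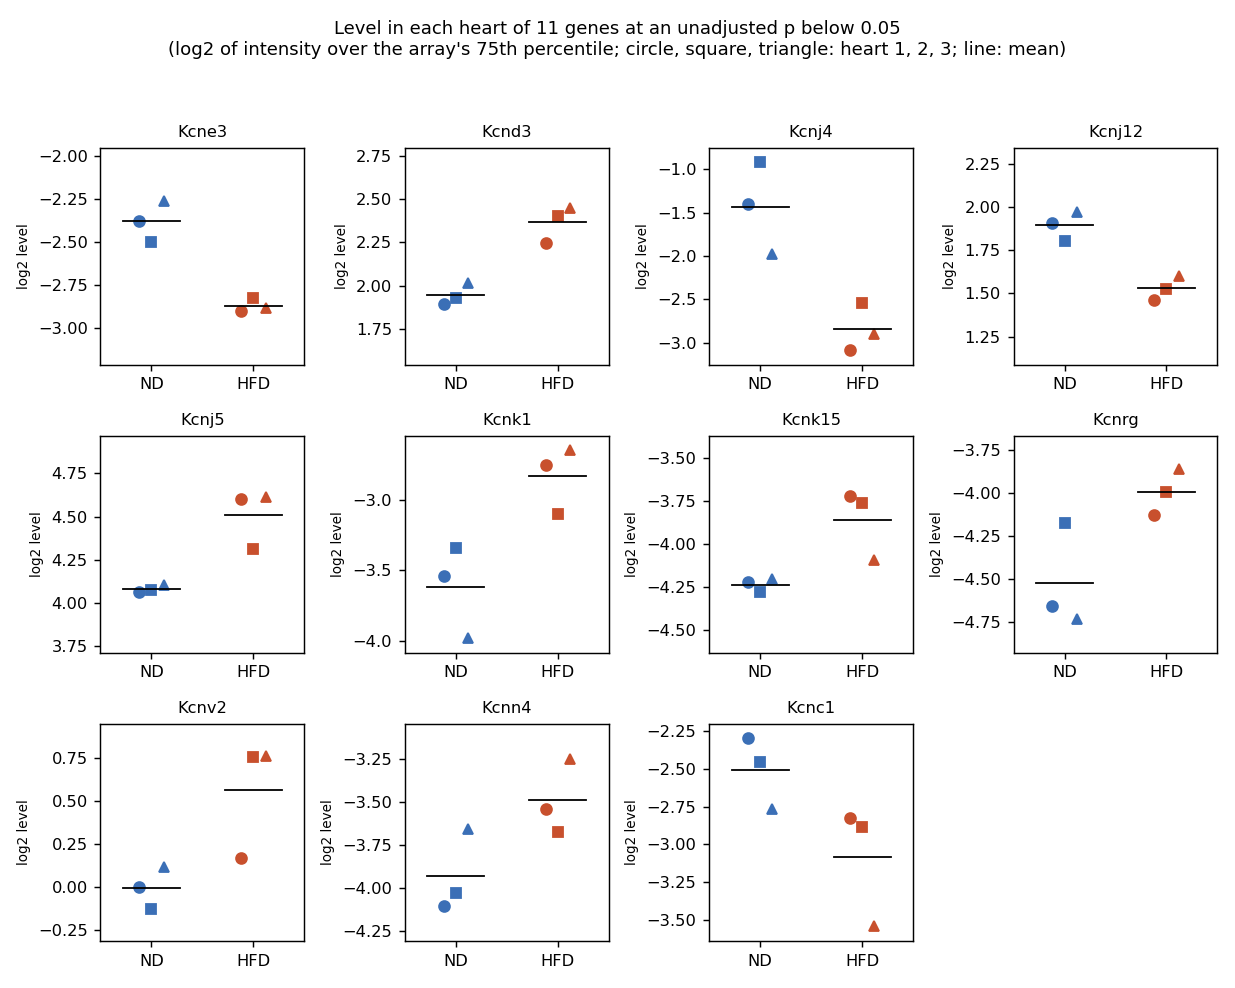
Level in each heart (y axis, log2 of intensity over the 75th percentile of the array, a separate scale per panel) for 11 of the 12 genes at an unadjusted p below 0.05, by diet (x axis), with lines at the group means. The hearts of the diets did not overlap in any panel except that of Kcnn4, and Kcnj4 had the widest separation at −1.41.

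Two-pore-domain channels, which carry leak current, had 8 genes tested, with 2 higher, none lower and a median difference of 0.13. Kcnk1, a weakly conducting leak channel, read −3.54, −3.34 and −3.98 in the ND hearts and −2.75, −3.10 and −2.65 in the HFD hearts. All 3 HFD hearts lay above the ND hearts, and HFD 2 and ND 2 were the nearest pair. The difference was 0.79 (SE 0.20), 1.73-fold, with an unadjusted p of 0.00752 and an adjusted p of 0.263 in limma. It was the largest increase of the 50 genes, and was 0.29 with normexp background correction at an unadjusted p of 0.0079.

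Kcnk15, a relative of Kcnk3 that gives no current of its own, read −4.22, −4.28 and −4.20 in the ND hearts and −3.72, −3.76 and −4.09 in the HFD hearts, close to the lowest level of any probe well above background (−4.92 to −4.50 across the arrays). The difference of 0.38 (SE 0.11, unadjusted p = 0.0162 in limma) was 0.07 with normexp background correction. It was 0.14 with slide row as a term, which rests on HFD 3 alone of the HFD hearts. It missed the unadjusted limit under 6 of 19 alternative settings. Kcnk3, an acid-sensitive leak channel, read 5.08, 5.10 and 5.08 in the ND hearts and 4.93, 5.03 and 5.07 in the HFD hearts. The HFD hearts lay just below the ND hearts, with a difference of −0.08 (SE 0.07, unadjusted p = 0.296 in limma).

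Calcium- and sodium-activated pores had 4 genes tested. Kcnn3, 1 of them, entered through the HFD hearts only, so no count or median over the group is given. Kcnn4, the intermediate-conductance channel of blood and vascular cells, read −4.10, −4.03 and −3.66 in the ND hearts and −3.54, −3.68 and −3.25 in the HFD hearts. ND 3 lay between HFD 1 and HFD 2. The difference was 0.44 (SE 0.16), with an unadjusted p of 0.0350 and an adjusted p of 0.387 in limma, and it missed the unadjusted limit under 10 of 19 alternative settings. It was 0.13 with normexp background correction. Kcnn2, a small-conductance channel, differed by 0.12 (SE 0.07, 95% interval −0.07 to 0.30).

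A set of 20 genes that carry or shape cardiac repolarization and the resting potential was listed for description. Of these, 17 were tested, and Kcnd3, Kcnj5 and Kcnk1 were higher and Kcnj12 lower at the unadjusted limit. The other 13 differed by 1.01-fold to 1.27-fold in either direction. Over all gene names tested, 4.97% were higher and 7.01% lower at the unadjusted limit.

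**Figure D4:**
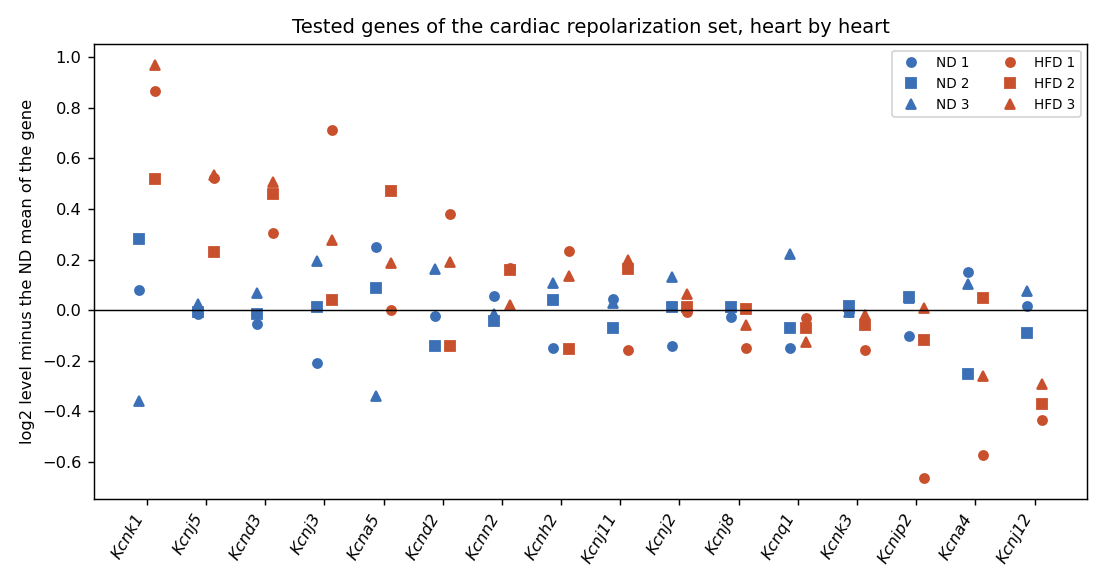
Level of each heart minus the mean of the ND hearts (y axis, log2 scale) for 16 of the 17 tested genes of the cardiac repolarization set (x axis), with 1 point per heart (blue ND, red HFD, shape for heart 1, 2 or 3). The red points of Kcnk1, Kcnj5 and Kcnd3 lie above all blue points of the same gene, and those of Kcnj12 below.

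Several of these genes spread more widely within the HFD group than the diets differed. In 10 of 50 genes the hearts of 1 diet spanned more than 1 unit, in 9 of them within HFD and in 2 within ND. The share over all gene names was not computed. Some of the 10 were dim, such as Kcnmb4 with intensities of 18.04 to 85.55 across the hearts. Kcnab1, a cytoplasmic beta subunit, read −0.32, −2.14 and −1.21 in the HFD hearts against −1.66, −1.96 and −1.41 in the ND hearts. Kcnmb1, the beta subunit of Kcnma1 in smooth muscle, read −1.40, −3.09 and −2.71 in the HFD hearts against −2.69, −2.56 and −2.55 in the ND hearts. HFD 1 was the highest and HFD 2 the lowest heart for both.

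Some marker lists differed between these hearts as well. The smooth muscle and pericyte list had 8 of 9 genes tested. Its mean level was 3.14 to 3.36 in ND hearts and 4.03, 2.96 and 3.37 in HFD hearts. The genes of this list did not move together. Cnn1, Tagln, Myh11 and Cspg4 were highest in HFD 1 and lowest in HFD 2, and Acta2 was highest in HFD 1. Rgs5, Des and Notch3 were instead lowest in HFD 1, and Notch3 was highest in HFD 2. The skeletal muscle list had 3 of 8 genes tested, namely Acta1, Ckm and Tnnt3. Their mean level was 3.21 to 3.61 in ND and 2.83 to 3.07 in HFD hearts, with Acta1 and Ckm lower at the unadjusted limit. The defining Myh4, Myh1, Myh2, Mylpf and Actn3 of this list were not well above background in every heart of either diet. Its mean is therefore not a measure of skeletal muscle content. All 9 cardiac myocyte markers were well above background in all 6 hearts, with list means of 8.41 to 8.44 in ND and 8.22 to 8.49 in HFD hearts. The part of other cell types in the channel values was not tested.

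**Figure D5:**
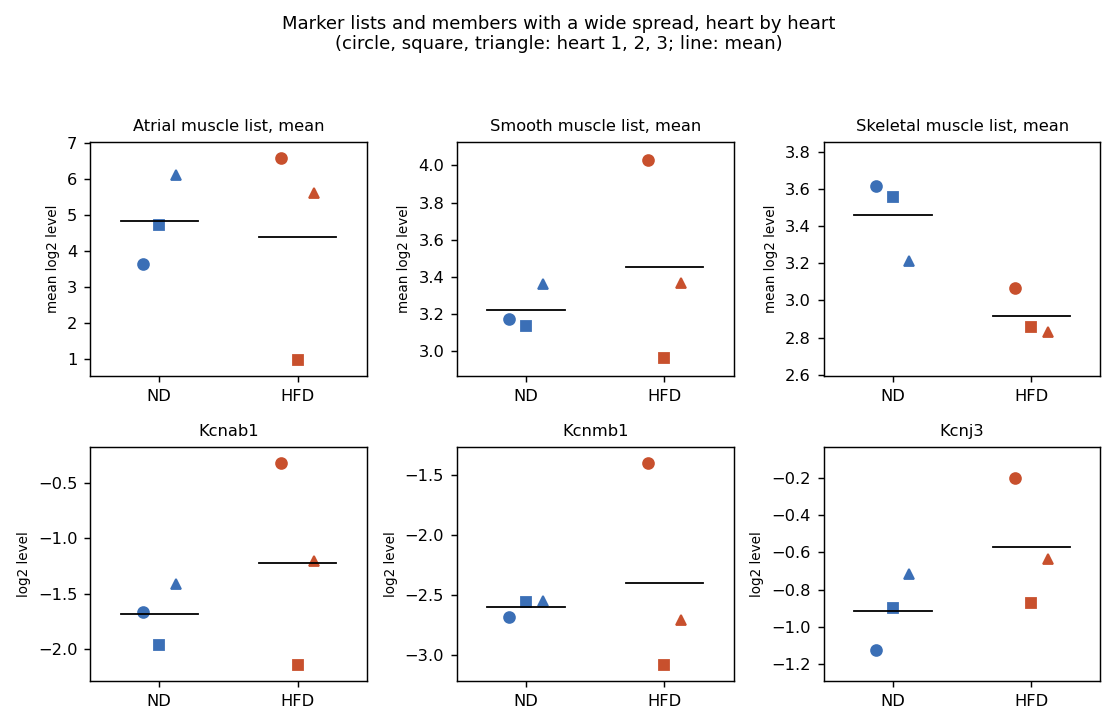
Mean level of the atrial, smooth muscle and skeletal muscle marker lists and levels of Kcnab1, Kcnmb1 and Kcnj3 in each heart (y axis, log2 scale), by diet (x axis), with lines at the group means. HFD 1 is the highest HFD heart in all 6 panels, and HFD 2 the lowest in all but the skeletal muscle panel, where it lies at 2.86 beside 2.83 in HFD 3.

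Other lists differed between the diets as well. Of 11 tested immediate early genes, which answer within minutes to stimulation or handling, all 11 were higher in HFD hearts and 8 passed the unadjusted limit, with a median difference of 0.95. All 6 tested erythroid genes were lower, 5 of them at the unadjusted limit. The endothelial, fibroblast, nerve and leukocyte lists had 7 tested genes each and medians between −0.05 and 0.13. Their relation to the channel genes was not tested.

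The position on the slide was shared unevenly by the diets, with HFD 1 and HFD 2 in one row and HFD 3 in the same row as the 3 ND hearts. A fit with slide row as a term therefore gives only the distance of HFD 3 from the ND mean. Within the shared row, HFD 3 lay beyond all 3 ND hearts in the direction of the group difference for the 12 genes at the unadjusted limit, but HFD 3 was among the hearts by which these genes were selected, so its side is a description only. Its distance from the ND mean was −1.47 for Kcnj4, 0.97 for Kcnk1, 0.53 for Kcnj5, 0.51 for Kcnd3 variant 1, −0.50 for the first Kcne3 probe and −0.29 for Kcnj12.

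Proteins that bind, deliver or regulate these channels were examined as a list of 26 partners, all on the array and 24 tested. None passed the adjusted limit in limma, and at the unadjusted limit 3 of the 24 were lower and none higher in HFD hearts, which as a share is near the 12.0% of all gene names. Nedd4l, a ubiquitin ligase of channel proteins, was counted by its brightest probe (0.22, SE 0.10, unadjusted p = 0.069 in limma), while its second probe was higher (0.24, SE 0.08) at an unadjusted p of 0.0279. Irx5, a homeobox repressor of Kcnd2 in ventricle, read −1.16, −1.07 and −1.47 in ND and −2.05, −1.62 and −1.73 in HFD hearts. The diets did not overlap, and the difference was −0.57 (SE 0.16), with an unadjusted p of 0.0109 and an adjusted p of 0.284. Irx3, a homeobox factor of the conduction system, differed by −0.67 (SE 0.25, unadjusted p = 0.0362 in limma) with overlapping hearts.

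Adora1, the adenosine receptor that opens the Kcnj3 and Kcnj5 channel through G proteins, differed by −0.55 (SE 0.15), with an unadjusted p of 0.012 and an adjusted p of 0.287 in limma, and its hearts did not overlap. With slide row as a term, which leaves HFD 3 alone against the ND hearts, the difference of Adora1 was −0.35. Without HFD 2, 6 of 24 partners had an unadjusted p below 0.05 in limma, beside 2726 of 20985 gene names. Chrm2, the muscarinic receptor of the same channel, differed by 0.23 (SE 0.15). The sulfonylurea receptors of the ATP-sensitive channel differed by −0.18 (SE 0.10, Abcc8) and −0.17 (SE 0.15, Abcc9), and the HFD hearts lay below the ND hearts for Abcc8. Klf15, a clock-driven activator of Kcnip2, differed by −0.30 (SE 0.17).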

How the data were processed

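RNA of 3 ND and 3 HFD hearts was measured on 6 Agilent arrays, 1 per heart, on 1 slide. The authors deposited intensities made with Agilent Feature Extraction (10.7 per the labels, 10.7.1.1 per the file headers), with the background subtracted within each array and no normalization between arrays. They also deposited log2 values, whose making is not given in the sources used here. Each column matched a quantile normalization of its own array's log2 intensity (median difference at most 0.00188), and they served as an alternative. The flags for background and outliers are the software's.

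Control spots and 127 to 190 outlier spots per array were left out, and no spot was saturated. Spots of a probe were averaged, and the array's 75th percentile (453.3 to 543.6 intensity units) was subtracted after log2. On each array 49.2% to 53.0% of probes were well above background. Probes above background in all hearts of 1 diet or both, with values on 2 or more arrays per diet (27585 probes, 20568 gene names) were tested with limma 3.58.1 in R 4.3.3 (lmFit and eBayes, two-sided, Benjamini-Hochberg over all probes). The small number of arrays limits the precision. Hearts come from separate mice. Equal replicate numbers did not pair hearts (correlations of −0.154, 0.147 and 0.19).

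Genes named with values were the tested genes of the cardiac repolarization set, genes with a probe at an unadjusted p below 0.05, the 3 largest increases and decreases, genes whose probes disagreed, and partners at that limit. Kcng2, Kcne4, Kcnn3, Kcnmb4, Kcnab1, Kcnmb1, Chrm2, Nedd4l, Abcc8, Abcc9 and Klf15 were named after their values were seen. Values of a few genes are not reported here, although the counts include them. The members and lists were chosen with earlier results of these data known. Alternatives were quantile normalization, normexp background correction (offset 50), no filter and a filter on all 6 arrays, a replicate block, robust variances with an intensity trend, the deposited log2 values, array weights, the methods' t-test, outlier spots kept, slide row, the atrial list as covariate, the mean of a gene's probes, and leaving out each heart. Figures were drawn with matplotlib 3.10.9.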

Additional observations from a re-analysis of the deposited data

How the results depend on the processing

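No potassium channel gene passed the adjusted limit under any of the 19 alternatives, with 5 to 11 genes higher and 3 to 7 lower at an unadjusted p below 0.05. The channel genes in the fit numbered 47 to 95, since some alternatives change the filter. Over all gene names, those at the unadjusted limit ran from 1631 of 20677 (without ND 1) to 3395 of 20568 (array weights), beside 2464 in the report. Against 8 higher genes in the report, normexp background correction, the methods' t-test, and an intensity trend with robust variances each gave 5, and leaving out single hearts gave 5 (without HFD 3) to 9. Against 4 lower genes, leaving out single hearts gave 3 to 7 (without HFD 2). The median difference of 0.0768 was 0.0518 with normexp and 0.0306 with no filter on dim probes, and 0.0131 (without HFD 1) to 0.1271 (without HFD 2) with single hearts left out. Against 3 of 24 partners at the unadjusted limit in the report, the atrial covariate gave 7, beside 3212 of 20568 gene names. Leaving out single hearts gave 2 to 6. Slide row as a term leaves HFD 3 alone against the ND hearts, so its count of partners is not given. The fit with replicate number as a block, which the pairing check did not call for, gave 0 genes past the adjusted limit, 9 higher, 5 lower and a median of 0.0768. Signs turned only for genes whose hearts overlapped: Kcnip2 (0.0102 with slide row), Kcnq1 (−0.1525 to 0.0351 with single hearts left out), Kcnh2 (−0.0087 to 0.1861 likewise), Kcnj2 (−0.0471 to 0.0880 likewise) and the second Kcne3 probe (−0.0213 with array weights, −0.0614 with slide row, −0.0313 to 0.1047 likewise). Of 601 values of named genes under alternatives, 535 kept their direction and side of the unadjusted limit, 48 fell short of it, 9 came to pass it and 9 changed sign. Those that fell short in 4 or more alternatives were Kcnn4 (10), Kcnrg, Irx3 and Kcnd3 variant 2 (7 each), Kcnk15 (6), Kcnc1 (5) and Kcnv2 (4). The cause was not tested. Genes above background numbered 47 to 48 with single hearts left out, 50 when every heart of 1 diet sufficed and 66 when 1 heart did. Signal near background limits Kcnk15, Kcnrg, Kcnn4 and Kcnd3 variant 2. Kcnk1 was dim as well, with intensities of 30.22 to 86.7 across the hearts beside 28.45 to 57.05 for Kcnn4. Its difference of 0.79 was 0.29 with normexp.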
